A study of Homo sapiens with 12 samples.

Results

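The sodium-glucose cotransporters (SGLT) and facilitative glucose transporters (GLUT) were followed as 10 genes, SLC5A1, SLC5A2, SLC5A3, SLC2A1, SLC2A2, SLC2A3, SLC2A6, SLC2A9, SLC2A10 and SLC2A12, out of 25992 gene names on the array. They were chosen by name, and every probe for human transcripts that carries one of these names was used, which gave 12 probes. SLC5A2 encodes SGLT2, the target of empagliflozin (Empa).

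Total RNA came from the human proximal tubular cell lines HK-2, immortalized with papillomavirus genes, and RPTEC/TERT1, immortalized with telomerase. The growth media held 5.8 mmol/L glucose for HK-2 and 5 mmol/L for RPTEC/TERT1, and all cells were starved of serum and supplements for 24 h. For the next 24 h the cells stayed without a ligand (control), were stimulated with 10 ng/mL of IL-1β, or were given 500 nM Empa. No array carries cells that received both agents. There are 6 groups of 2 arrays, described as biological duplicates, and the 12 one-color arrays lie on 4 slides. Each slide holds the 3 conditions for 1 line and 1 replicate number. By the array names, each condition took the same position on every slide, so treatment and position cannot be told apart.

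In the kidney, glucose filtered into the tubule is taken back across the apical membrane of proximal tubular cells by SGLT2 and, further along, by SGLT1, which use the sodium gradient. It leaves the cell across the basolateral membrane through the facilitative carriers GLUT2 and GLUT1. Other members of these families carry related solutes, such as myo-inositol (SLC5A3) and urate (SLC2A9), or lie mainly on other membranes of the cell.

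The labels of the lines call for care before any level is read. Over 15329 probes that passed the background mark on every array, Pearson's r between controls was 0.984 for HK-2 replicate 1 with RPTEC/TERT1 replicate 2, but 0.880 between the HK-2 controls. It was 0.973 for HK-2 replicate 2 with RPTEC/TERT1 replicate 1, but 0.875 between the RPTEC/TERT1 controls. The source entry of all 12 samples says HK-2. Values are therefore given for each slide under its label, and no groups were formed from these correlations. Of 14 proximal tubule markers, 7 passed that mark on all 12 arrays and 2, SLC22A6 and HNF4A, on none, and of 6 distal nephron markers 4 passed on none, UMOD on all 12 and SLC12A1 on 6, with a control level of up to 5.00. The endothelial marker CDH5 and the leukocyte marker PTPRC also passed on all 12, with control levels of at most -2.18 and -2.73. Of the other endothelial markers VWF passed on 3 arrays and PECAM1 on 1, and of the other leukocyte markers CD14 on 11 and CD3E on 2. Of 4 fibroblast markers COL1A1 passed on 11, LUM on 6, with a control level of up to 1.73, COL3A1 on 2 and PDGFRB on none. The 75th percentile of the signal lay between 295 and 735 signal units, and between 53.5% and 63.5% of probes were well above background. In RNA from whole cultures, fewer expressing cells and less RNA per cell cannot be told apart.

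The sequences shown first are the parts of 3 probes on which the account of SLC5A2 and SLC2A6 rests, each the last 30 bases of a 60-base probe read from the array files. The probe for SLC5A2 lies at hg19 chr16:31502023-31502082 and holds the polyadenylation signal letters AATAAA, given in capitals. SLC2A6 has a pair of probes. Probe A at hg19 chr9:136336217-136336276 also holds AATAAA in capitals. Probe B at chr9:136336469-136336528, on the same strand, ends in letters resembling the Alu family of repeats, and the last 11 are in capitals.
SLC5A2 probe: gttgccctaaggaaaAATAAAgctgccttt
SLC2A6 probe A: cttttgtaaaAATAAAggaactggacctgt
SLC2A6 probe B: tggcacacacccgtagttcCAGCTACTTGG
No probe of another gene among the 34127 on the array shared a run of 20 bases with any of the 12 member probes on either strand. With runs of 14 bases, SLC2A6 probe B shared one with 10 probes of other genes, SLC2A6 probe A with 7 and the SLC5A2 probe with 3.

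The bases before the transcription start are shown for SLC5A2, SLC2A1 and SLC2A6, since these genes carry the IL-1β comparison. The 250 bases are from RefSeq on build GRCh38.p14, a build other than that of the probe positions, at chr16:31482873-31483122 on the plus strand for SLC5A2, at chr1:42958869-42959118 on the minus strand for SLC2A1 and at chr9:133479100-133479349 on the minus strand for SLC2A6. Capitals mark matches on either strand to a shortened NF-κB site (GGGNNTTCC), the site bound by AP-1 (TGANTCA), the E-box and hypoxia letters ACGTG and the hypoxia letters GCGTG, the GC box (GGGCGG) and the TATA box (TATAAA). No matches overlap in these sequences.
SLC5A2: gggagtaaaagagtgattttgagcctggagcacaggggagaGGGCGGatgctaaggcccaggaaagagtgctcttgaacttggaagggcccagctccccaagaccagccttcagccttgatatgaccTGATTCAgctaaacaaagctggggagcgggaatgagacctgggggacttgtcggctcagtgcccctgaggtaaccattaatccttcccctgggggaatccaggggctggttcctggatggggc
SLC2A1: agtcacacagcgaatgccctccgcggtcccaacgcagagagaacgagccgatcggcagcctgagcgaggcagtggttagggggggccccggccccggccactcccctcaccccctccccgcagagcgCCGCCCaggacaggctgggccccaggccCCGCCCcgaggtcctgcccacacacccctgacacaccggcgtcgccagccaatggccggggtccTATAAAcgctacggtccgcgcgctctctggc
SLC2A6: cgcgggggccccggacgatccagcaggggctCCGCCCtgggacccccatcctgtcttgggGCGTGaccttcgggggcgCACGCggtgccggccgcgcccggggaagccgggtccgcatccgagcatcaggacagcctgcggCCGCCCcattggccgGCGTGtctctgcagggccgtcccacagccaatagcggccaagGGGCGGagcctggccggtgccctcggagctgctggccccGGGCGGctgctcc
SLC5A2 held 1 match to TGANTCA and 1 GC box. SLC2A1 held 2 GC boxes and a TATAAA beginning 31 bases before the start. SLC2A6 held 3 matches to GCGTG and 4 GC boxes. GGGNNTTCC was in none of these 3 windows. Of 35116 RefSeq windows of the same length, 6.57% held TGANTCA, 18.5% held ACGTG, 32.2% held GCGTG, 42.6% held a GC box, 10.7% held TATAAA and 5.78% held GGGNNTTCC, and a match is a description of letters. Promoter sequences were found for 9 of the 10 genes.

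Levels are given as log2 of the background-subtracted signal relative to the 75th percentile of its array, so that 0 is the level of that percentile, and a level of one probe cannot be set against that of another. A probe is called well above background as the scanner software marks it. On this mark, 5 of the 12 probes passed on all 12 arrays (SLC5A2, SLC5A3, SLC2A1 and both probes of SLC2A6), 5 on some arrays and 2 on none. The probe of SLC5A1 and SLC2A3 probe B were the 2 that passed on none. A gene entered the main fit where a probe passed on both arrays of at least 1 group and had no outlier spot, which left 5 of the 10 members: SLC5A2, SLC2A1, SLC2A3, SLC2A6 and SLC2A10. SLC2A3 entered through the IL-1β arrays of RPTEC/TERT1, and SLC2A10 through the treated arrays of HK-2. The other probes lie on hg19 at chr22:32506237-32506296 (SLC5A1), chr21:35478440-35478499 (SLC5A3), chr1:43391874-43391933 (SLC2A1), chr3:170714553-170714612 (SLC2A2), chr4:9828102-9828161 (SLC2A9), chr20:45363893-45363952 (SLC2A10) and chr6:134308998-134309057 (SLC2A12).

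**Figure D1:**
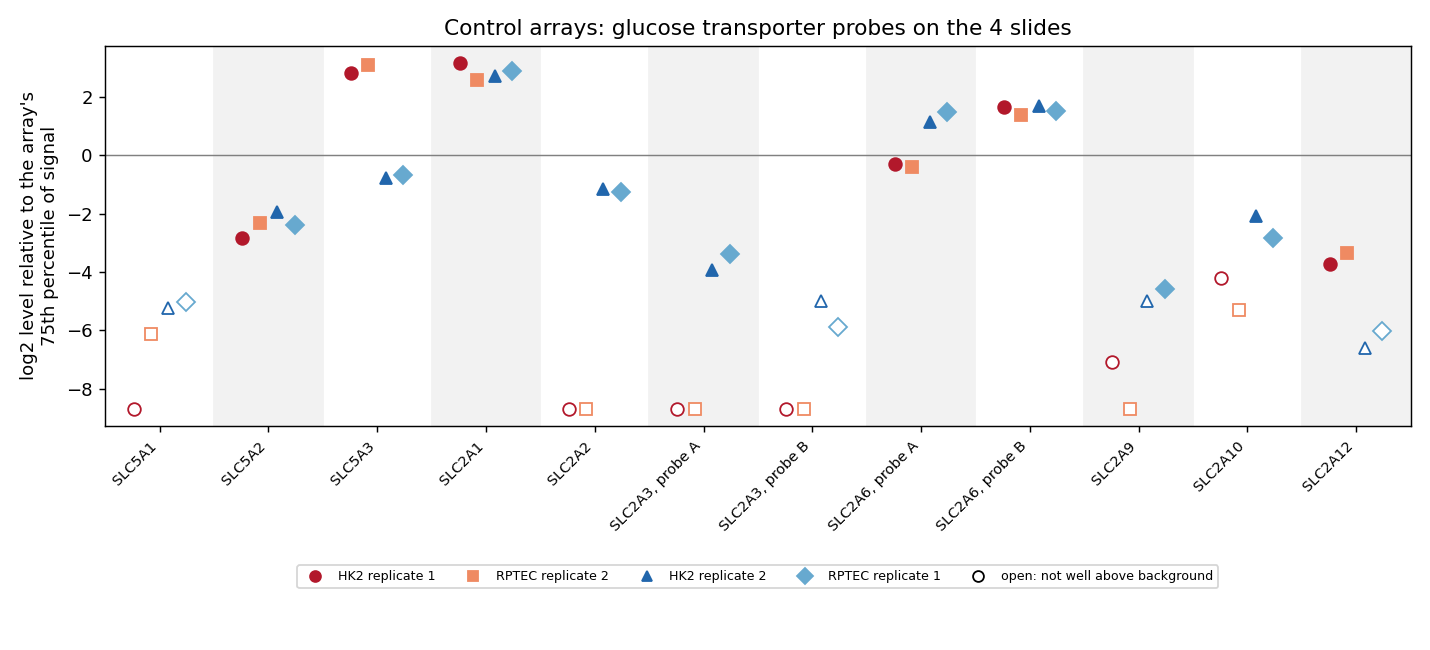
Log2 level relative to the 75th percentile of the array (vertical axis) of the 12 glucose transporter probes (horizontal axis) on the 4 control arrays, with 1 symbol per slide and open symbols where the probe was not well above background. SLC5A3 lies at 2.83 and 3.09 on the slides in red and at -0.78 and -0.67 on those in blue, while SLC5A2 lies between -2.85 and -1.96 on all 4.

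Among the sodium-coupled carriers, SLC5A2 was well above background on every array and SLC5A1 on none. The control level of SLC5A2 was -2.85 for HK-2 replicate 1, -1.96 on HK-2 replicate 2, -2.38 on RPTEC/TERT1 replicate 1 and -2.32 on RPTEC/TERT1 replicate 2. The slides of the lines overlap, and RPTEC/TERT1 minus HK-2 was 0.05 with a standard error of 0.39 (limma adjusted p of 1). These are dim spots, with 36.7 to 118 signal units over the 12 arrays. The background mark was also passed on all 12 arrays by the distal nephron marker UMOD, the endothelial CDH5 and the leukocyte PTPRC. Passing it is thus not by itself evidence of expression. SLC5A1, which encodes SGLT1, lay between 0.172 and 12.1 signal units on the 12 arrays and is reported as not well above background.

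SLC5A3, the sodium/myo-inositol cotransporter SMIT1, separated the slides by more than any difference with treatment. Its control level was 2.83 on HK-2 replicate 1, 3.09 on RPTEC/TERT1 replicate 2, -0.78 on HK-2 replicate 2 and -0.67 on RPTEC/TERT1 replicate 1. All of its treated arrays kept that separation. A spot on the control array of HK-2 replicate 1 and another on the Empa array of RPTEC/TERT1 replicate 2 were marked as outliers, so the gene was left out of the main fit and its values are from the data with outlier spots kept.

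SLC2A1, the GLUT1 carrier, had a control level of 3.15 on HK-2 replicate 1, 2.73 on HK-2 replicate 2, 2.87 on RPTEC/TERT1 replicate 1 and 2.58 on RPTEC/TERT1 replicate 2, with no separation of the lines. SLC2A2, the GLUT2 carrier of the basolateral membrane, was well above background in control at -1.16 on HK-2 replicate 2 and -1.24 on RPTEC/TERT1 replicate 1. On the slides of HK-2 replicate 1 and RPTEC/TERT1 replicate 2 its signal was at or below 0 signal units on all 6 arrays. Within each label, then, 1 slide carried a GLUT2 signal and the other did not.

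SLC2A10, which encodes GLUT10, was well above background in control at -2.07 on HK-2 replicate 2 and -2.82 on RPTEC/TERT1 replicate 1, and not at -4.21 on HK-2 replicate 1 or -5.29 on RPTEC/TERT1 replicate 2. SLC2A12, which encodes GLUT12, ran the other way, with -3.71 on HK-2 replicate 1 and -3.33 on RPTEC/TERT1 replicate 2, and no level well above background on the other slides. SLC2A3, the high-affinity carrier GLUT3, has probe A at hg19 chr12:8072924-8072983 and probe B, whose 60 bases span 1445 bases at chr12:8075591-8077035. Probe A was at -3.93 on HK-2 replicate 2 and -3.39 on RPTEC/TERT1 replicate 1 in control, and at the floor of 1 signal unit on the other slides. SLC2A9, the urate carrier GLUT9, was well above background on 2 arrays, among them the control of RPTEC/TERT1 replicate 1 at -4.59.

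For SLC2A6, the lysosomal carrier GLUT6, the probes differed between slides in unlike ways. Probe A was at -0.29 on HK-2 replicate 1, -0.41 on RPTEC/TERT1 replicate 2, 1.13 on HK-2 replicate 2 and 1.47 on RPTEC/TERT1 replicate 1 in control. Probe B stayed between 1.37 and 1.70 on these arrays. In the comparison of the controls, RPTEC/TERT1 minus HK-2, 0 of the 5 members in the fit passed an adjusted p of 0.05, as did 0% of all 15717 genes (limma), of which 188 had an unadjusted p under 0.05.

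The IL-1β comparison asks whether an inflammatory signal changes the carriers. The GLUT1 transcript, and the GLUT6 transcript at 1 of its 2 probes, were higher with IL-1β on every slide. The SGLT2 transcript was lower on every slide after scaling. Before scaling, its signal was not lower on the slides of HK-2 replicate 2 and RPTEC/TERT1 replicate 2. GLUT2 and GLUT12 signals, where present in control, were not well above background with IL-1β. In the main limma fit of 6 groups (15717 genes, 5 of them members), 0 of 5 members passed an adjusted p of 0.05, against 0.0445% of all genes, and the median log2 difference over all genes was -0.10. With the slide as a block 0 of 5 passed against 5.44%, and with the slide as a block and 1 effect per treatment 1 of 5, SLC2A1, against 12.5%. Within a line label, 0 of 5 passed for HK-2 or RPTEC/TERT1 without a block, as did 0% of all genes, and again 0 of 5 with the slide as a block, against 0.261% and 0.21%.

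**Figure D2:**
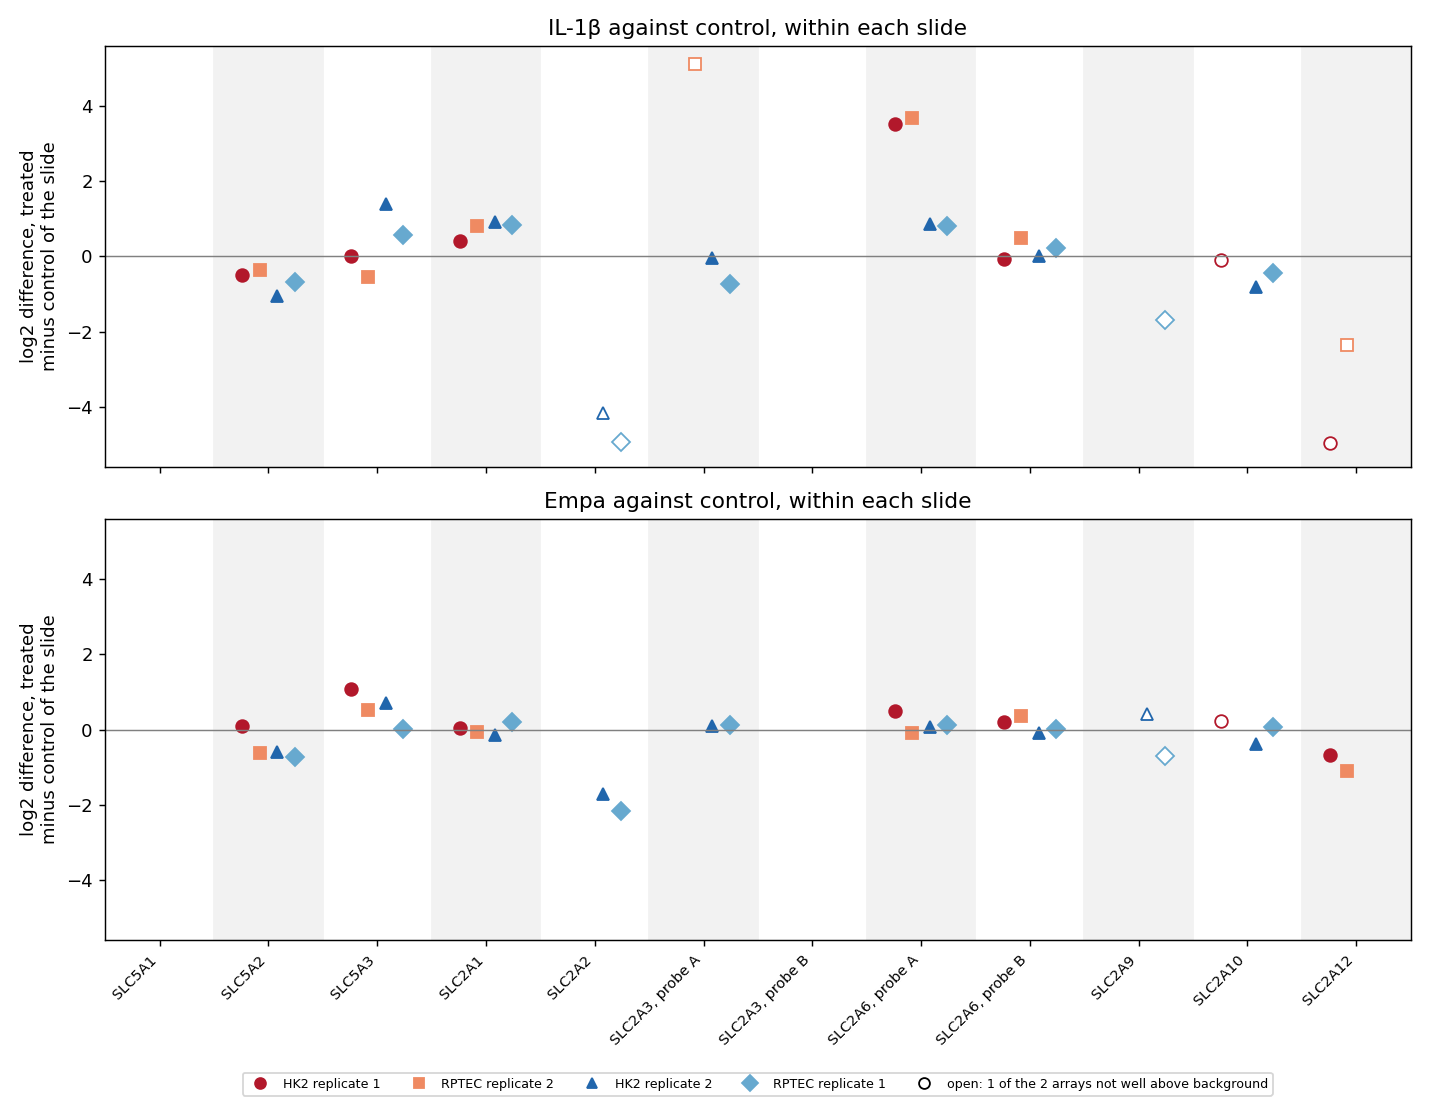
Log2 difference between treated and control array of the same slide (vertical axis) for the 12 probes (horizontal axis), with IL-1β above and Empa below, 1 symbol per slide. Open symbols have 1 of the 2 arrays not well above background, where the plotted size depends on the floor, and pairs with neither array above background are not drawn. With IL-1β, SLC2A1 and SLC2A6 probe A lie above 0 on all 4 slides and SLC5A2 below 0 on all 4.

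SLC2A1 reached 3.55 with IL-1β on HK-2 replicate 1, 3.64 on HK-2 replicate 2, 3.70 on RPTEC/TERT1 replicate 1 and 3.38 on RPTEC/TERT1 replicate 2. All 4 IL-1β arrays lay above all 4 control arrays. The within-slide differences were 0.40, 0.91, 0.83 and 0.80 in that order, or 1.32-, 1.88-, 1.78- and 1.75-fold. Their mean was 0.74 ± 0.23 (SD, n = 4 slides), or 0.84 above the median of all genes. The limma adjusted p was 0.545 in the main fit, 0.0688 with the slide as a block and 0.0179 with 1 effect per treatment. Of all 15717 genes, 15.6% were higher on 4 of 4 slides.

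SLC2A6 probe A reached 3.22 with IL-1β on HK-2 replicate 1, 3.26 on RPTEC/TERT1 replicate 2, 1.99 on HK-2 replicate 2 and 2.29 on RPTEC/TERT1 replicate 1. The slides with the lower control levels thus had the higher IL-1β levels. The differences were 3.51, 3.68, 0.85 and 0.82, or 11.4-, 12.8-, 1.81- and 1.76-fold, with a mean of 2.22 ± 1.59 (SD, n = 4 slides). When every probe was tested, its limma adjusted p was 0.423 without a block, where 0.0458% of all 19664 probes passed. It was 0.0874 with the slide as a block, where 4.62% passed, and 0.0312 with 1 effect per treatment, where 11.5% passed. Of these probes, 15.5% were higher on 4 of 4 slides. The IL-1β difference of RPTEC/TERT1 minus HK-2 labels was 0.07 with a standard error of 1.34 (adjusted p of 1 without a block).

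SLC2A6 probe B, the brighter probe and so the one standing for the gene in the main fit, did not show this. With IL-1β it was at 1.57 on HK-2 replicate 1, 1.71 on HK-2 replicate 2, 1.75 on RPTEC/TERT1 replicate 1 and 1.86 on RPTEC/TERT1 replicate 2. Its differences were -0.07, 0.01, 0.22 and 0.49, with a mean of 0.16 ± 0.25 (SD, n = 4 slides) and an adjusted p of 0.535 with 1 effect per treatment. The probes for SLC2A6 therefore disagree, and the cause was not tested.

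**Figure D3:**
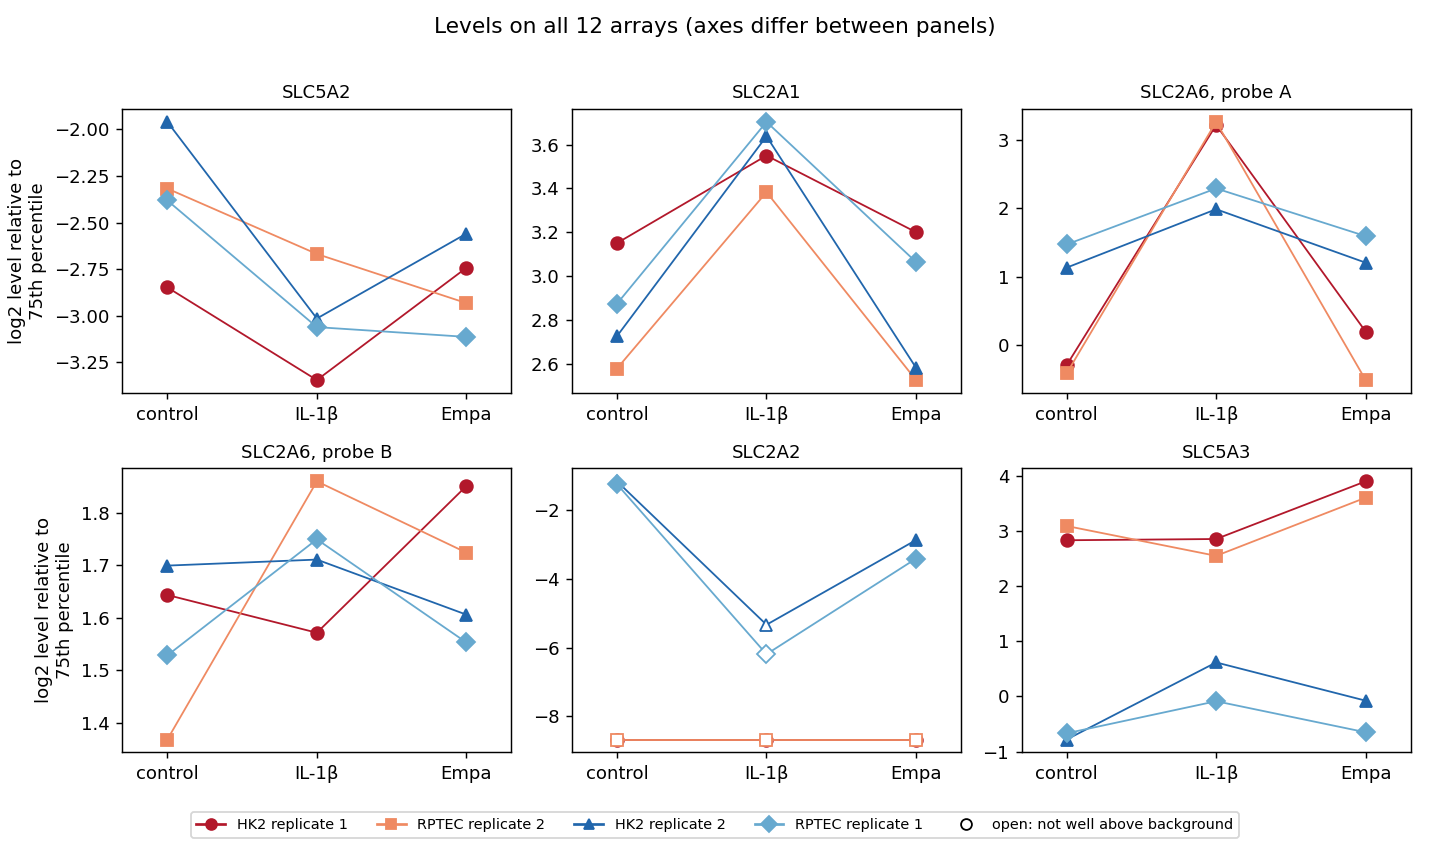
Log2 level relative to the 75th percentile (vertical axis, a different range in each panel) on the control, IL-1β and Empa array (horizontal axis) of each of the 4 slides, joined by lines, for SLC5A2, SLC2A1, both probes of SLC2A6, SLC2A2 and SLC5A3. Open symbols are not well above background, and SLC2A2 lies at the floor on all 6 arrays of the slides of HK-2 replicate 1 and RPTEC/TERT1 replicate 2, where the symbols overlie each other.

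SLC5A2 was at -3.35 with IL-1β on HK-2 replicate 1, -3.02 on HK-2 replicate 2, -3.06 on RPTEC/TERT1 replicate 1 and -2.67 on RPTEC/TERT1 replicate 2. The IL-1β and control arrays overlap as groups, but each IL-1β array lay below its own control. The differences were -0.50, -1.06, -0.68 and -0.35, or 1.41-, 2.08-, 1.60- and 1.28-fold lower. Their mean was -0.65 with an SD of 0.30 (n = 4 slides), which is -0.55 after the median of all genes is taken off. The limma adjusted p was 0.636 in the main fit, 0.0963 with the slide as a block and 0.0605 with 1 effect per treatment, and 24.1% of all genes were lower on 4 of 4 slides. Before scaling, the signal was 90.0 units in control and 90.9 with IL-1β on HK-2 replicate 2, and 59.2 and 59.6 on RPTEC/TERT1 replicate 2, while the 75th percentile of these arrays went from 350 to 735 and from 295 to 379. The part of the scaling in the difference was not tested. The alternative normalizations cannot show it, since each of them also brings the arrays to a common distribution. Under these alternatives the difference stayed below 0 on 4 of 4 slides, with means of -0.48 (quantile normalization), -0.27 (normexp) and -0.30 (the authors' table). In the authors' table the slide nearest to no difference was at -0.05.

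SLC2A2 was below the measurable range with IL-1β on both slides that carried it in control. The signal went from 157 units in control to 18.2 on HK-2 replicate 2 and from 168 to 5.67 on RPTEC/TERT1 replicate 1, and neither IL-1β value was well above background. The IL-1β level was taken as the higher of the probe's own value and the lowest value well above background on the array. By this measure SLC2A2 was 18.1-fold lower on HK-2 replicate 2 and 24.5-fold lower on RPTEC/TERT1 replicate 1. These are not lower limits, since a probe above that lowest value can still be unmarked. The gene MLXIPL, at -4.45, was not well above background on the IL-1β array of RPTEC/TERT1 replicate 1. With no filter on dim probes its adjusted p was 0.369 with the slide as a block, and the other slides held it at the floor throughout.

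SLC2A12 showed the same on the other slides. By the same measure SLC2A12 was 3.95-fold lower with IL-1β on HK-2 replicate 1 and 5.12-fold lower on RPTEC/TERT1 replicate 2. These again are not lower limits, as SLC2A10 at -4.52 was not well above background on the IL-1β array of RPTEC/TERT1 replicate 2. The adjusted p of SLC2A12 was 0.520 when dim probes were kept and the slide was a block. SLC2A9 was 2.41-fold lower by that measure on RPTEC/TERT1 replicate 1, where its control level of -4.59 lay below the unmarked -4.45 of MLXIPL with IL-1β. SLC2A3 probe A was at the floor in the control of RPTEC/TERT1 replicate 2. With IL-1β it was 4.16-fold above the lowest value well above background on that control array. It differed by -0.05 on HK-2 replicate 2 and -0.73 on RPTEC/TERT1 replicate 1. No mean over slides is given for SLC2A3, since the floor on 2 slides would set it. SLC2A10 differed by -0.81 on HK-2 replicate 2 and -0.44 on RPTEC/TERT1 replicate 1, the slides where both arrays were well above background. Its adjusted p was 0.767 with the slide as a block. Before scaling, its signal on HK-2 replicate 2 was higher with IL-1β, at 100 units against 83.5 in control. On RPTEC/TERT1 replicate 1 it was lower, at 43.1 against 56.2. SLC5A3 differed by 0.02, 1.40, 0.58 and -0.54 on HK-2 replicate 1, HK-2 replicate 2, RPTEC/TERT1 replicate 1 and RPTEC/TERT1 replicate 2, with an adjusted p of 0.577 with outlier spots kept and the slide as a block, a fit in which 5.86% of all genes passed.

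The Empa comparison asks whether blocking SGLT2 changes the carriers, and it uses the same control arrays. No member changed by the test. In the main fit 0 of 5 members passed, as did 0% of all genes, and 203 genes had an unadjusted p under 0.05. The blocked fit again gave 0 of 5 and 0%, and 1439 genes had an unadjusted p under 0.05, and with 1 effect per treatment 0 of 5 against 0.00636% of all genes.

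SLC5A2 itself was at -2.74 with Empa on HK-2 replicate 1, -2.56 on HK-2 replicate 2, -3.11 on RPTEC/TERT1 replicate 1 and -2.93 on RPTEC/TERT1 replicate 2. It was lower than the control of its slide on 3 slides, by 1.52-, 1.66- and 1.53-fold, and 1.08-fold higher on HK-2 replicate 1. Before scaling, the signal was 118 units with Empa against 90.0 in control on HK-2 replicate 2, where the 75th percentile was 698 against 350, and 59.7 against 59.2 on RPTEC/TERT1 replicate 2, where it was 456 against 295. The mean difference was -0.46 with an SD of 0.38 (n = 4 slides) and an adjusted p of 0.539 with the slide as a block. It was between -0.68 and -0.24 with 1 array or slide left out, and -0.39, -0.22 and -0.28 with quantile normalization, normexp and the authors' table. SLC2A1 differed by 0.05, -0.14, 0.19 and -0.05 on HK-2 replicate 1, HK-2 replicate 2, RPTEC/TERT1 replicate 1 and RPTEC/TERT1 replicate 2, a mean of 0.01 ± 0.14 (SD, n = 4 slides). SLC2A6 probe A differed by 0.15 ± 0.25 and probe B by 0.12 ± 0.20 (SD, n = 4 slides each), and the fit of every probe with 1 effect per treatment called 0.00509% of all probes, neither of these among them.

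SLC2A2 had a larger Empa difference than any other member, counting slides where both arrays were well above background. It went from -1.16 to -2.87 on HK-2 replicate 2 and from -1.24 to -3.41 on RPTEC/TERT1 replicate 1, or 3.27- and 4.49-fold lower. Only these 2 slides measured it, and with no filter on dim probes its adjusted p was 0.814 with the slide as a block. SLC2A12 was 1.59-fold lower on HK-2 replicate 1 and 2.16-fold lower on RPTEC/TERT1 replicate 2, again the 2 slides that measured it. SLC5A3 was higher with Empa on 4 of 4 slides, by 1.07, 0.70, 0.02 and 0.51 on HK-2 replicate 1, HK-2 replicate 2, RPTEC/TERT1 replicate 1 and RPTEC/TERT1 replicate 2, as were 12.9% of all genes in the main fit, but on 3 of 4 in the authors' table, where the lowest difference was -0.05. Its adjusted p was 0.630 with outlier spots kept and the slide as a block. SLC2A3 probe A differed by 0.09 and 0.12 on the slides where both arrays measured it. SLC2A10 differed by -0.39 and 0.08 on HK-2 replicate 2 and RPTEC/TERT1 replicate 1. Before scaling, its signal was 127 units with Empa against 83.5 in control on the former and 47.4 against 56.2 on the latter. By the measure used for dim probes with IL-1β, SLC2A9 was 1.52-fold lower on RPTEC/TERT1 replicate 1 and 1.33-fold higher on HK-2 replicate 2. Neither value is a lower limit.

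The difference in effect between the labels was tested for each member in the fit. In both comparisons, RPTEC/TERT1 minus HK-2, 0 of 5 members passed with or without the slide as a block, as did 0% of all genes. For SLC2A1 the IL-1β effect differed by 0.16 with a standard error of 0.37, and for SLC5A2 by 0.26 with a standard error of 0.38, both with the slide as a block. Since the line labels do not follow the likeness of the arrays, these values compare labels.

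A list of 17 further genes, of the SLC2 and SLC5 families with the glucose exporter SLC50A1, had 8 in the main fit. With IL-1β, 0 of 8 passed without a block and 1 of 8 with the slide as a block, SLC2A11, which encodes GLUT11, against 0.0445% and 5.44% of all genes. SLC2A11 went from -0.30 to -2.97 on HK-2 replicate 1, from -0.59 to -3.01 on RPTEC/TERT1 replicate 2, from -0.88 to -1.98 on HK-2 replicate 2 and from -1.18 to -2.05 on RPTEC/TERT1 replicate 1. After scaling, all IL-1β arrays lay below all controls, and the mean difference was -1.76 with a standard error of 0.39. The adjusted p of SLC2A11 was 0.0497 with the slide as a block and 0.234 without. Before scaling, its signal on HK-2 replicate 2 hardly differed, at 190 units in control and 187 with IL-1β. The 75th percentile of these arrays went from 350 to 735. In the authors' table with the block, 0 of the family passed, and so it was when the slide of HK-2 replicate 1, HK-2 replicate 2 or RPTEC/TERT1 replicate 2 was left out. The median over the 8 genes was -0.13, against -0.10 over all genes. SLC2A14, a near copy of SLC2A3, was well above background on 6 arrays, those of RPTEC/TERT1 replicate 1 and HK-2 replicate 2, where it was 1.57- and 1.95-fold lower with IL-1β. Before scaling, its signal on HK-2 replicate 2 was 314 units with IL-1β against 292 in control. With Empa 0 of 8 passed with or without the slide as a block, as did 0% of all genes. The median was -0.28, against -0.02 over all genes.

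Of 39 genes that handle glucose and inositol around the carriers or regulate them, 29 were in the main fit. With IL-1β 0 of 29 passed without a block, against 0.0445% of all genes, and with the slide as a block 2 were higher and 3 lower, against 328 higher and 527 lower, or 5.44%, of all genes. The count of 5 was 0 without the slide of HK-2 replicate 1 or of HK-2 replicate 2, 3 without RPTEC/TERT1 replicate 1 and 1 without RPTEC/TERT1 replicate 2. SGK1, a kinase that holds sodium-coupled carriers at the membrane, went from 1.76 to 4.20, 2.44 to 4.52, 2.85 to 4.58 and 1.67 to 4.13 on HK-2 replicate 1, HK-2 replicate 2, RPTEC/TERT1 replicate 1 and RPTEC/TERT1 replicate 2 (mean 2.18, adjusted p of 0.00629 with the slide as a block). HK2, the hexokinase 2 gene, which traps glucose by phosphorylation, was higher by 1.32 on average (adjusted p of 0.0270). PDZK1, a scaffold of apical carriers, went from 3.84 to -0.83, 2.90 to 0.85, 2.99 to 0.21 and 3.82 to -0.44 on the same slides in that order (mean -3.44, adjusted p of 0.0162). MLXIPL, the carbohydrate-responsive factor ChREBP, was lower by a mean of -2.56 (adjusted p of 0.00682), although 3 of its 4 IL-1β arrays were not well above background. ISYNA1, the inositol phosphate synthase, was lower by a mean of -1.01 (adjusted p of 0.0325). The median over the 29 genes was -0.15, against -0.10 over all genes.

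TXNIP, an arrestin that drives GLUT1 off the cell surface, was lower with IL-1β on every slide. It went from 3.89 to -1.27 on HK-2 replicate 1, 3.93 to -0.25 on RPTEC/TERT1 replicate 2, 4.74 to 3.50 on HK-2 replicate 2 and 4.70 to 3.39 on RPTEC/TERT1 replicate 1, or 35.7-, 18.2-, 2.37- and 2.47-fold lower. Its adjusted p was 0.0950 with the slide as a block and 0.0368 with 1 effect per treatment. ARRDC4, a related arrestin, differed by a mean of -1.10 (adjusted p of 0.0806 with the slide as a block). Before scaling, its signal on HK-2 replicate 2 was higher with IL-1β, at 402 units against 300 in control. MIOX, which breaks down inositol in the proximal tubule, differed by -1.83 (0.0699), and AKR1B1, the aldose reductase, by 1.60 (0.101), each the same way on 4 of 4 slides. In the same fit with 1 effect per treatment, 3 of the 29 genes were higher and 7 lower, against 744 higher and 1217 lower, or 12.5%, of all genes.

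PDZK1IP1 encodes MAP17, a partner that SGLT2 needs for its activity. Its IL-1β spots on both HK-2 slides were marked as outliers, and with these kept it was higher with IL-1β on every slide, by 5.56-, 2.02-, 2.07- and 4.99-fold on HK-2 replicate 1, HK-2 replicate 2, RPTEC/TERT1 replicate 1 and RPTEC/TERT1 replicate 2. The adjusted p was 0.0835 with the slide as a block and 0.0329 with 1 effect per treatment. With Empa it was lower on every slide after scaling, by 3.63-, 1.34-, 1.27- and 1.88-fold, with an adjusted p of 0.599 with the slide as a block. Before scaling, its signal on HK-2 replicate 2 was higher, at 4647 units with Empa against 3088 in control. The 75th percentile of these arrays was 698 against 350.

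**Figure D4:**
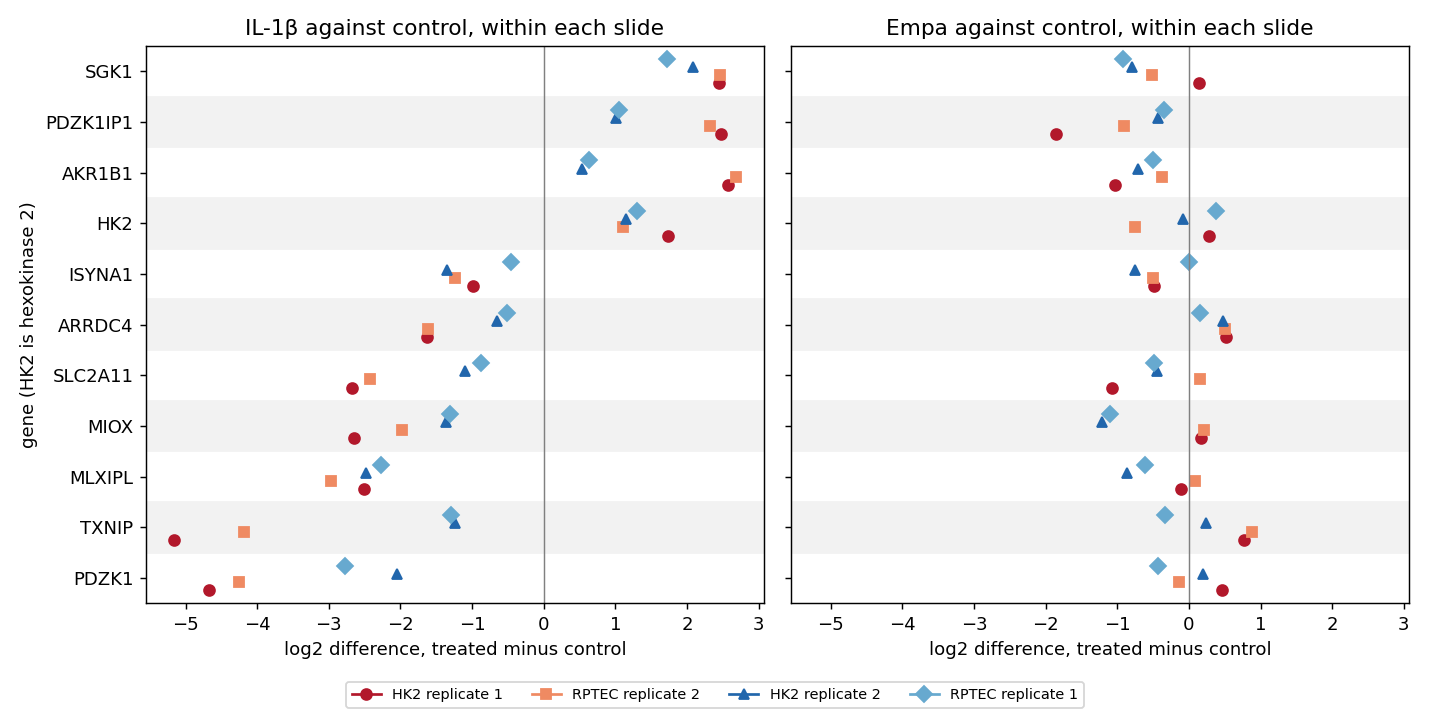
Log2 difference between treated and control array of the same slide (horizontal axis) for 11 genes of the further lists (vertical axis), IL-1β left and Empa right, with 1 symbol for each of the 4 slides. SGK1, PDZK1IP1, AKR1B1 and the hexokinase 2 gene lie above 0 with IL-1β on all 4 slides and the other 7 genes below 0, and for TXNIP, PDZK1 and SLC2A11 the red slides of HK-2 replicate 1 and RPTEC/TERT1 replicate 2 lie farther from 0 than the blue ones.

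With Empa 0 of the 29 genes passed, with or without the slide as a block, as did 0% of all genes. Their median was -0.22, against -0.02 over all genes. The 3 highest among genes above background on all arrays and higher on 4 of 4 slides were IMPA1, an inositol phosphatase, with a mean of 0.58, STXBP3, a vesicle docking protein, with 0.48 and ARRDC4 with 0.41. Among the lowest were HKDC1, a hexokinase, with -0.90 and SLC6A6, the taurine carrier, with -0.66. The adjusted p of these genes lay between 0.539 and 0.658 with the slide as a block. Of all genes, 12.9% were higher and 13.7% lower on 4 of 4 slides. Before scaling, SLC6A6 on HK-2 replicate 2 was higher with Empa, at 440 units against 266, and HKDC1 was at 308 against 336. On RPTEC/TERT1 replicate 1, IMPA1, STXBP3 and ARRDC4 were lower before scaling, at 751, 1099 and 200 units against 790, 1232 and 225.

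Genes with the most similar pattern were sought over the 12 arrays among 12611 genes (12612 for SLC2A3 and SLC2A10) well above background on all of them. For SLC2A1 it was DRAP1, with r of 0.97 and 0.99 after the slide means were taken off. For SLC2A6 probe A these were DOCK10, SLC16A3 and GJC1, with r of 0.99, 0.98 and 0.98. For SLC5A2 they included LINC01310 with r of 0.90 and AGBL4 with 0.87. For SLC2A6 probe B the highest was DDN with 0.83. For SLC2A10, whose slides differ in level, r with TMEM59L was 0.98 and 0.86 after the slide means. For SLC2A3 probe A, measured on 7 arrays, it was PGAM1 with 0.96. The arrays of a slide share a control, and the genes were picked as the highest of many, so these values are descriptions.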

How the data were processed

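The authors deposited one-color microarray intensity values, made with Feature Extraction 9.5.3.1 on a design with hg19 positions, and a table of log2 values, which the authors deposited as normalized data and which served as an alternative. Total RNA of 12 samples was measured, 1 array each. Background-subtracted intensities were divided by the 75th percentile of the array, set to at least 1 signal unit and taken to log2. Control spots and outlier spots were left out, and a probe entered where the scanner software marked it above background throughout 1 or more groups. Of each gene's probes the brightest was tested with limma 3.58.1 (R 4.3.3) in a fit of 6 groups, with adjusted p by Benjamini-Hochberg over 15717 genes and a threshold of 0.05. Same-numbered arrays of a line share a slide and deviated together (r of 0.593 to 0.779 over 6 pairs), so values with the slide as a block are given beside the main IL-1β and Empa results.

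Named were the 10 members at every probe, list genes past the threshold with or without the block, the 3 with the largest mean change in each direction on 4 of 4 slides, PDZK1IP1, TXNIP and SLC2A14, and the 3 genes most like each member. Some genes that this rule names are not reported here. Members and lists were chosen with earlier results of these data known. The methods' t-test, other normalizations, floors, filters and left-out arrays were tried as 31 alternatives, 3 of them chosen after seeing the data. The scripts were tested on simulated data. P-values measure the spread between these arrays. The number of arrays limits the precision, and without an hg19 annotation probe positions are given with gene names only.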

Additional observations from a re-analysis of the deposited data

How the results depend on the processing

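Counts of genes past the threshold with IL-1β depended on the pairing. Over all genes they were 7 without a block, 855 with the replicate block and 1961 with 1 effect per treatment. Among the 5 members the count was 0 without or with the block and 1 with 1 effect per treatment. When every probe was tested with 1 effect per treatment, SLC2A1 (limma adjusted p of 0.0198) and SLC2A6 probe A (0.0312) both passed. For the further family genes it was 0 without the block and 1 with it, with outlier spots kept and the block, with 1 effect per treatment, and with that fit over every probe, but 0 in the authors' table with the block and over every probe with the block. For the glucose handling genes it was 0 without the block, 5 with it, also with every probe or with outlier spots kept, 10 with 1 effect per treatment with the selected or every probe, and 4 in the authors' table with the block. Leaving out 1 array (no block) or 1 slide (with the block) gave 0 to 1 for the members, 0 to 1 for the family and 0 to 3 for the handling genes. Without the slide of RPTEC/TERT1 replicate 1 these were 1 (SLC2A3, whose controls lie at the floor on 2 slides and which entered the fit through IL-1β arrays, so that this count does not show a change), 1 and 3, and without that of RPTEC/TERT1 replicate 2 the handling genes gave 1. The cause was not tested.

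Reversals of sign concerned differences that passed no test. The Empa difference of SLC2A10 was -0.011 in the authors' table with or without the block, against 0.10. With an array or slide left out, it ranged from -0.51 to 0.72, that of SLC2A3 from -1.30 to 1.41, that of SLC2A1 from -0.14 to 0.17, and the IL-1β difference of SLC2A10 from -0.76 to 0.47. The Empa difference of SLC5A2 did not reverse and ranged from -0.68 to -0.24. SLC2A1 and SLC5A2 kept their IL-1β direction under every alternative run, with adjusted p from 0.0179 to 1 and from 0.0605 to 1. None of the alternatives left out the scaling between arrays, so its part in the SLC5A2 difference was not tested. A t-test that the methods state for other assays put 0 members and 0 of all genes past the adjusted threshold in each line and treatment. Dim signal limits SLC5A1, SLC2A9, SLC2A2 and SLC2A12, which were well above background on 0, 2, 4 and 4 of 12 arrays, and SLC2A3, on 7 at probe A.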
